A study of Rattus norvegicus with 4 samples.

Results

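Astrocytes of the rat orbitofrontal cortex, a prefrontal region that values rewards and guides choice, were examined by single-nucleus RNA sequencing after methamphetamine (METH), a psychostimulant that raises dopamine and other monoamines outside neurons, and after saline. The METH animals had received 1 mg/kg METH by intraperitoneal injection for 7 days, and the other animals saline for the same 7 days. All were wild-type male Sprague-Dawley rats of 8 weeks with 4 animals per group, and pentobarbital at 60 mg/kg was given to all before tissue was taken. Each group had 2 libraries of nuclei. The sources used here do not tie animals to libraries, so p-values cover the spread between libraries alone, part of which may be technical.

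A barcode was taken as an astrocyte when it held at least 500 genes, at most 5% mitochondrial UMIs (unique molecular identifiers, 1 per captured transcript), at least 4 UMIs of the 6 astrocyte genes Aqp4, Gja1, Slc1a3, Slc4a4, Prex2 and Itih3 together, at most 2 UMIs of the neuronal genes Slc17a7, Camk2a, Gad1 and Gad2, at most 2 of the oligodendrocyte genes Mog, Mobp and St18, at most 2 of the precursor genes Pdgfra and Vcan, and at most 1 of the vascular genes Flt1 and Abcc9 (Col1a2 was not used here). Of 46633 deposited barcodes 43903 passed the first 2 limits, and 4804 of these were astrocytes by the rule. There were 1142 and 1262 in METH replicates 1 and 2, and 1534 and 866 in saline replicates 1 and 2. The counts that chose the nuclei are described below and not tested. The library of saline replicate 1 was unlike the remaining 3. Its astrocytes had a median of 1005.5 UMIs, against 1478.5 and 1742 in METH replicates 1 and 2 and 1670.5 in saline replicate 2, and it held the most nuclei. The summed astrocyte counts came to 1913991 and 2496171 UMIs in METH and 1904086 and 1633543 UMIs in saline. METH replicates 1 and 2 shared 2 astrocyte barcodes and METH replicate 1 and saline replicate 2 shared 1, while the other pairs of libraries shared 0.

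Astrocytes take up glutamate and potassium from around synapses, carry water through aquaporin-4, are coupled to each other by connexins, and supply neurons with lipids and lactate. In the cortex, protoplasmic astrocytes fill the grey matter with fine processes, and fibrous and pial (surface) astrocytes carry more of the intermediate filament protein GFAP. Astrocytes carry monoamine, glutamate, GABA and purine receptors, and respond to glucocorticoids released in stress.

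The label was checked with 5 astrocyte genes outside the rule: Slc1a2 (the glutamate transporter GLT-1), Glul (glutamine synthetase), Gjb6 (connexin 30), Fgfr3 (a growth factor receptor) and Ntsr2 (a neurotensin receptor). Their summed level over all astrocytes of the rule was 2238 CPM (the count scaled to the total of the summed counts). When the nuclei were grouped into 16 clusters, 4 clusters were above this level, at 1.09 to 1.32 times it. The other 12 lay at 0.0586 to 0.823 times it. The 4 clusters held 3833 nuclei, and the 12 clusters held 971 nuclei, or 20.2% of the astrocytes of the rule. The share of nuclei in the 12 clusters was 14.1% and 17.0% in METH and 25.9% and 22.9% in saline. The rule therefore admitted nuclei whose leading genes were not those of astrocytes, and they were a larger share of the astrocytes in both saline libraries. Each main result is given below for all astrocytes of the rule and again for the 3833 nuclei left when the 12 clusters were set aside at 0.9 of the level of all. That second set was chosen after seeing the data and is called the narrowed set.

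The clusters set aside were led by genes of several other cell types. Cluster 4, the largest with 237 nuclei, had 195 of them in saline replicate 1 and summed levels of 947 CPM for the excitatory and 1221 CPM for the inhibitory neuron markers. Cluster 5, with 185 nuclei, was led by Slc6a20 (a proline transporter), Aldh1a2 (a retinoic acid synthesis enzyme), Bmp6 and Ptgds, genes known from the leptomeninges, and it held 9.58% of the astrocytes of saline replicate 2 against 1.63% to 4.04% in the other libraries. Clusters 6 and 9 carried 2535 and 7031 CPM of the 8 microglia markers, and 47 of the 68 nuclei in cluster 9 came from METH replicate 2. Cluster 10, with 57 nuclei, had 5080 CPM of the bicarbonate transporter Slc4a4 but 10.9 CPM of Slc1a2, and was led by Bnc2, Adamtsl3, Hmcn1 and Rspo2. It made up 0.525% and 0.713% of the astrocytes in METH, and 1.499% and 2.19% in saline. Oligodendrocyte precursor markers reached 2193 CPM in cluster 8, oligodendrocyte markers 7862 CPM in cluster 13, and vascular markers 921 and 1310 CPM in clusters 15 and 16.

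Among the 4 clusters that were kept, cluster 1 held 1776 nuclei and was led by Adamts20, Luzp2, Etv4 and Slco1c1. Cluster 2, with 1290 nuclei, was led by Adam11, Slc38a3, Slc7a10 and Cck. Slc17a7, a neuronal gene of the rule, was at 75.5 CPM there and at 37.4 CPM in the other astrocytes. Cluster 2 held 44.5% of the astrocytes of the shallow saline replicate 1 and 15.0% to 20.1% of those of the other libraries. Cluster 3, with 623 nuclei, was led by Tnc (tenascin-C, a matrix protein), Id3 (an inhibitor of DNA binding that answers to bone morphogenetic protein signals), Disp3, Alk and Gfap. Its share was 14.2% and 15.8% of the astrocytes in METH and 10.2% and 12.01% in saline, a description that was not tested. Cluster 7, with 144 nuclei, was led by mitochondrially encoded genes.

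**Figure D1:**
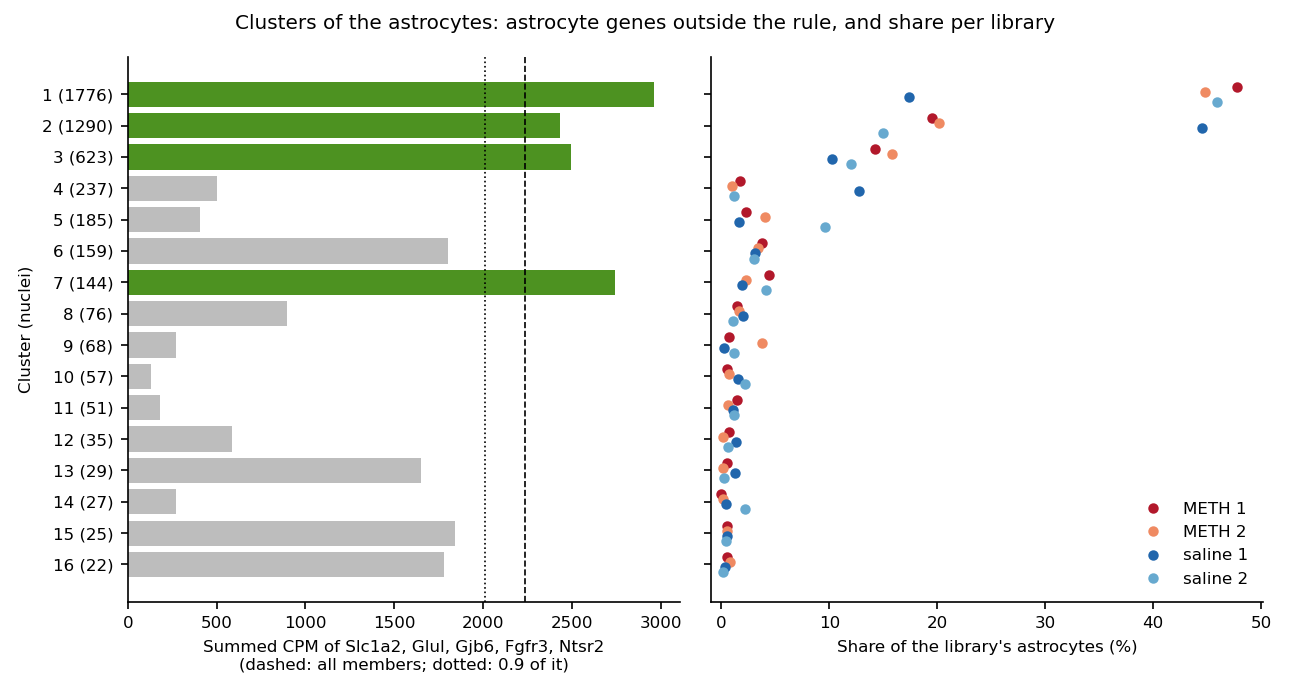
Clusters of the 4804 astrocytes of the rule, with the number of nuclei in brackets. Left, summed CPM of 5 astrocyte genes outside the rule, with clusters kept in green and set aside in grey; right, the share of each library's astrocytes in each cluster. Clusters 1, 2, 3 and 7 lie above the level of all members, and saline replicate 1 has 12.7% of its astrocytes in cluster 4, against 0.951% to 1.75% in the other libraries.

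At the limit of 4 UMIs there were 70 and 68 members with exactly 4 UMIs of the 6 genes in METH and 235 and 48 in saline, and 89 and 99 barcodes with 3 UMIs in METH and 323 and 75 in saline. Slc1a2 stood at 1866 and 1957 CPM in all astrocytes of the METH libraries and at 1474 and 1852 CPM in those of the saline libraries. In nuclei at 4 UMIs it was 499.6 and 267 CPM in METH, against 632 and 179 CPM in saline, and in barcodes at 3 UMIs 89.2 and 168 CPM in METH, against 356 and 96.2 CPM in saline. The nuclei at 4 UMIs had a median of 1124.5 and 1323.5 UMIs in all in METH, and of 999 and 1202.5 in saline. Slc1a2 was lower on both sides of the limit than in the astrocytes as a whole in each library.

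Astrocytes made up a larger share of the nuclei in both METH libraries than in both saline libraries. They were 11.7% (95% Clopper-Pearson interval 11.1 to 12.3) and 14.7% (14.0 to 15.5) of the nuclei kept in METH, and 8.82% (8.40 to 9.25) and 10.6% (9.94 to 11.3) in saline. The group means were 13.2% ± 2.16 in METH and 9.71% ± 1.26 in saline (SD, n = 2 each), a difference of 3.50 percentage points. The intervals cover counting error only, and with 2 libraries against 2 the smallest two-sided p that an exact permutation test allows is 0.333. With nuclei thinned to 1000 UMIs before the rule and shallower ones left out, the shares were 11.2% and 15.3% in METH, against 4.72% and 10.4% in saline. These are shares of fewer nuclei. In saline replicate 1, 14082 of 17393 nuclei remained, and 753 of its 1534 astrocytes had fewer than 1000 UMIs. The part of the nuclei left out in the change of the shares was not tested. Nuclei of the narrowed set were 10.0% and 12.2% of the nuclei kept in METH, and 6.53% and 8.18% in saline. A larger share of nuclei does not tell more astrocytes apart from fewer nuclei of other types.

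Between METH and saline, 0 of 11320 genes tested passed an adjusted p of 0.05 in the astrocytes of the rule (0% called; edgeR quasi-likelihood test, Benjamini-Hochberg), 532 had an unadjusted p under 0.05, and DESeq2 called 1 gene, Rspo2, as lower. In the narrowed set, edgeR called 1 of 9990 genes (0.01%), Smarcc1, which was higher in METH; 348 had an unadjusted p under 0.05. The 2 METH values lay on one side of both saline values for 33.7% of genes in the astrocytes of the rule, 18.4% with METH above and 15.3% with METH below. In the narrowed set this held for 30.9% of genes, 15.5% with METH above and 15.4% with METH below. Groups without overlap were thus common in both sets. Leaving out 1 library leaves a group of 1, which is then assumed to vary like the other group. In all astrocytes 0 genes were called without either METH library, 29 without saline replicate 1 and 329 without saline replicate 2. Within the narrowed set the counts were 39 and 2 without METH replicates 1 and 2, and 16 and 127 without saline replicates 1 and 2. On data simulated with the means and totals of these libraries, the same test called 75.5% of genes changed 3-fold, 26.5% of those changed 2-fold and 4.17% of those changed 1.5-fold. In this simulation 48 or 49 of 11077 tested genes were changed at each fold. The simulated spread followed the mean level alone, so recovery in the real data may differ.

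Smarcc1 (ENSRNOG00000020804), whose product BAF155 is a scaffold subunit of the SWI/SNF (BAF) complexes that move nucleosomes, had the smallest p among the genes higher in METH. It stood at 351 and 368 CPM in METH and at 200 and 206 CPM in saline. Both METH libraries were above both saline libraries, with means of 359 ± 12.4 CPM in METH, against 203 ± 4.33 CPM in saline (SD, n = 2 each). The log2 fold change was 0.82 (SE 0.114), with an adjusted p of 0.703 in edgeR. In the narrowed set Smarcc1 was at 385 and 392 CPM in METH, against 213 and 224 CPM in saline, a log2 fold change of 0.84 (SE 0.107, adjusted p = 0.01002 in edgeR). With each library left out in turn, which leaves a group of 1 library, the narrowed value was 0.79 to 0.88 and past the threshold. In all astrocytes the adjusted p of Smarcc1 in edgeR was 0.999 without METH replicate 1, 0.99994 without METH replicate 2, 0.0459 without saline replicate 1 and 0.00784 without saline replicate 2. In the nuclei set aside it was at 226 and 274 CPM in METH and at 178 and 155 CPM in saline, so that the 2 groups did not overlap there either. Of 27 tested subunits of these complexes 17 had a positive log2 fold change in all astrocytes, with a median of 0.05, and Smarcc1 alone had an unadjusted p under 0.05. Among the narrowed nuclei 19 of 26 were positive with a median of 0.04, and Smarcc1 and Ss18 had an unadjusted p under 0.05. Over all genes 5586 of 11320 were positive in all astrocytes and 4999 of 9990 in the narrowed set. Of these genes 532 and 348 had an unadjusted p under 0.05 in edgeR. Ss18 was at 80.5 and 93.7 CPM in METH and at 66.2 and 72.2 CPM in saline, without overlap, at 0.33 (SE 0.154) in all astrocytes and 0.35 (SE 0.155, adjusted p = 0.997 in edgeR) in the narrowed set. The paralogous subunit Smarcc2 was at 0.01 (SE 0.148) and the ATPases Smarca2 and Smarca4 at −0.03 (SE 0.119) and 0.05 (SE 0.124). The 250 bases before the Smarcc1 start site (RefSeq, GRCr8, chr8:118989306-118989555, plus strand) are shown because this gene carried the single call, with capitals for the letters GGCGCC, found 44 bases before the start site.
Smarcc1: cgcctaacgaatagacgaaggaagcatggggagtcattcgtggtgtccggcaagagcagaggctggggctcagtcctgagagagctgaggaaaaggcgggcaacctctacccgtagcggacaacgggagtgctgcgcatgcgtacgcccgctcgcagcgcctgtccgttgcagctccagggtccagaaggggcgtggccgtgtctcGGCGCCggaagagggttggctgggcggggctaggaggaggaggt
On either strand, GGCGCC (a GC-rich SMAD motif) occurs in 8.69% of 33469 rat windows of this length. The STAT letters TTCNNNGAA, the AP-1 letters TGANTCA and the TATA letters TATAA are not in this window.

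Cst3 (ENSRNOG00000005195), the gene of cystatin C, which is secreted by astrocytes and blocks cathepsins and other cysteine proteases, was at 758 and 849 CPM in METH and at 412 and 517 CPM in saline. The groups did not overlap, and the log2 fold change was 0.78 (SE 0.141, adjusted p = 0.776 in edgeR). In the narrowed set it was at 748 and 752 CPM in METH and at 487 and 493 CPM in saline, a log2 fold change of 0.62 (SE 0.0984, adjusted p = 0.0647 in edgeR). B2m, the light chain of MHC class I, was at 101 and 120 CPM in METH and at 61.4 and 60.6 CPM in saline, a log2 fold change of 0.85 (SE 0.152, adjusted p = 0.776 in edgeR). It was at 0.73 (SE 0.153) in the narrowed set. Neither gene passed the threshold in either set. Atp13a5 and Slc2a5 completed the 5 genes with the smallest p among those higher in METH, at 2.20 (SE 0.413) and 1.46 (SE 0.292). Their UMIs came from the nuclei set aside, with 82.0% of those of Atp13a5 and 95.7% of those of Slc2a5, a fructose transporter known from microglia. Neither could be tested in the narrowed set.

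The 5 genes with the smallest p among those lower in METH also came mostly from the nuclei set aside. Rspo2, a secreted WNT agonist, was at 19.9 and 15.2 CPM in METH and at 78.3 and 68.6 CPM in saline, a log2 fold change of −2.09 (SE 0.209, adjusted p = 0.191 in edgeR). Among the narrowed nuclei its log2 fold change was −0.13 (SE 0.381), with 10.7 and 10.1 CPM in METH, against 11.1 and 11.6 CPM in saline. The 971 nuclei set aside held 81.3% of its UMIs, and Rspo2 was a leading gene of cluster 10 at 1497 CPM, a cluster with a larger share of both saline libraries. The share of UMIs in the nuclei set aside was 66.9% for Zfhx4, 72.4% for Adam23 and 84.3% for Sema3a, and their log2 fold changes in all astrocytes were −0.99 (SE 0.153), −1.30 (SE 0.207) and −1.46 (SE 0.241). Zfhx4 and Adam23 were at −0.51 (SE 0.224) and −0.37 (SE 0.280) in the narrowed set, where Sema3a had too few counts to be tested. Cpne8, a calcium-binding copine, had 58.7% of its UMIs in the nuclei set aside. It was at 36.6 and 32.0 CPM in METH, against 74.6 and 67.3 CPM in saline, and its log2 fold change was −1.06 (SE 0.175) in all astrocytes and −1.10 (SE 0.273, adjusted p = 0.997 in edgeR) in the narrowed set.

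**Figure D2:**
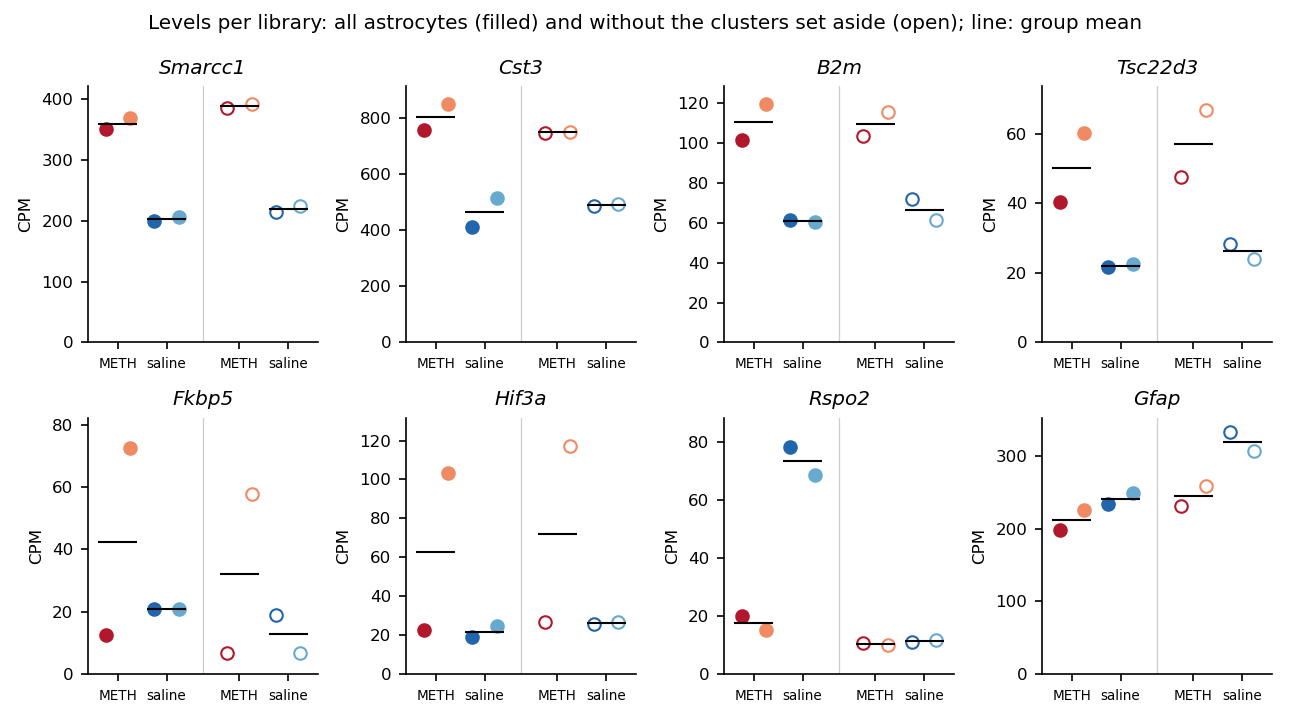
CPM of 8 genes in each library, with METH left of saline. Filled points are all astrocytes of the rule, open points the narrowed set, and lines the group means. Smarcc1 and Cst3 keep METH above saline in both sets, the gap of Rspo2 is seen in the filled points, and METH replicate 2 alone is high for Fkbp5 and Hif3a.

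The 21 genes of glucocorticoid receptors and response summed to 1192 and 1533 CPM in METH and to 1133 and 1316 CPM in saline, so that the groups overlapped, with METH replicate 2 the highest library. Fkbp5, which binds HSP90 and dampens glucocorticoid receptor signalling, was at 12.5 and 72.5 CPM in METH and at 21.0 and 20.8 CPM in saline. METH replicate 1 lay below both saline libraries and METH replicate 2 above them. The log2 fold change was 1.05 (SE 0.988, adjusted p = 0.941 in edgeR), and −0.74 without METH replicate 2. The nuclei set aside held 44.4% of the Fkbp5 UMIs. In the narrowed set Fkbp5 was at 6.67 and 57.8 CPM in METH and at 18.9 and 6.62 CPM in saline. There METH replicate 1 was level with saline replicate 2. Hif3a, a hypoxia-inducible factor subunit named here after its values were seen, was at 22.5 and 103 CPM in METH and at 18.9 and 24.5 CPM in saline, a log2 fold change of 1.56 (SE 0.925) that was 0.05 without METH replicate 2. Tsc22d3 (GILZ), a transcriptional regulator induced by glucocorticoids, was above saline in both METH libraries, at 40.2 and 60.1 CPM in METH, against 21.5 and 22.7 CPM in saline. Its log2 fold change was 1.18 (SE 0.250, adjusted p = 0.934 in edgeR) and 0.86 without METH replicate 2. Nfkbia, an inhibitor of NF-kappaB, was at 0.74 (SE 0.244). Of 19 tested members of the glucocorticoid list 13 had a positive log2 fold change, with a median of 0.26 in all astrocytes and 0.24 in the narrowed set. Over all genes in all astrocytes 5586 of 11320 were positive, with a median of −0.0037. The receptors themselves, Nr3c1 and Nr3c2, were at −0.15 (SE 0.147) and −0.17 (SE 0.124). None of the 19 was called.

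Genes for glutamate handling, ion balance and astrocyte contacts showed small differences, and none was called. Over all genes 5586 of 11320 log2 fold changes were positive. Of 12 tested members of the glutamate and GABA uptake list 10 were positive, with a median of 0.16, and 0.02 in the narrowed set. Glul was at 309 and 364 CPM in METH and at 211 and 275 CPM in saline, a log2 fold change of 0.46 (SE 0.159) that was 0.31 (SE 0.112) in the narrowed set. Slc1a2 and Slc1a3, the 2 astrocyte glutamate transporters, were at 0.19 (SE 0.135) and 0.16 (SE 0.136), and at 0.02 and 0.02 in the narrowed set, where Slc1a2 and Glul belong to the 5 genes whose level chose the clusters. Aqp4 was at 224 and 258 CPM in METH and at 195 and 180 CPM in saline, at 0.35 (SE 0.133), and Gja1 at 0.05 (SE 0.110); these 2 and Slc1a3 belong to the rule that chose the nuclei. Kcnk2, a leak-type potassium channel, was at −0.87 (SE 0.230), with 82.2% of its UMIs in the nuclei set aside. Its log2 fold change was −1.11 (SE 0.418, adjusted p = 0.997 in edgeR) in the narrowed set. Both METH libraries lay below both saline libraries there too. Hepacam, an adhesion protein that anchors connexins and MLC1, was at 0.41 (SE 0.128), and Mlc1 at 0.20 (SE 0.126). The medians were −0.0079 over 15 genes of potassium, water and ion handling and 0.09 over 14 genes of gap junctions and contacts. In the narrowed set they were −0.0061 and −0.03.

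Metabolic and secretory genes were likewise uncalled. Apoe, the main lipid carrier of astrocytes, was at 1251 and 1179.8 CPM in METH and at 981 and 1229 CPM in saline, a log2 fold change of 0.13 (SE 0.134) with overlapping groups. The medians were 0.11 over 18 lipid transport genes, 0.07 over 18 cholesterol synthesis genes and 0.11 over 17 genes of glycogen, glucose and lactate. In the narrowed set these 3 medians were −0.03, −0.02 and −0.0061. Npc2 (lysosomal cholesterol export) was at 0.43 (SE 0.150), Hk2 (hexokinase 2) at 0.58 (SE 0.198) and Ppp1r3c (a glycogen-targeting phosphatase subunit) at 0.47 (SE 0.176). Hk2 was at −0.0061 in the narrowed set. The antioxidant list had 13 of 16 tested members positive with a median of 0.17, and 11 of 16 with a median of 0.11 in the narrowed set. It was led by the quinone reductase Nqo1 at 0.89 (SE 0.302), and 0.97 (SE 0.284) in the narrowed set. The list summed to 1141 and 1168 CPM in METH and to 1007 and 1404 CPM in saline, so that the groups overlapped. The lysosomal list had 13 of 16 positive with a median of 0.15, and 10 of 14 with a median of 0.07 in the narrowed set. The 20 genes for synapse-regulating proteins had a median of 0.12, and 0.0035 in the narrowed set. Among them the proteoglycan Bcan was at 0.32 (SE 0.120) in all astrocytes.

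Mitochondrially encoded genes had 12 of 13 negative log2 fold changes between METH and saline, with a median of −0.34, and 11 of 11 tested negative in the narrowed set with a median of −0.50. Their summed level was 1420 and 958 CPM in METH, against 1528 and 1399 CPM in saline. METH replicate 2 was the lowest library, and METH replicate 1 lay between the 2 saline libraries. None was called, and Mt-nd4, a complex I subunit, was at −0.54 (SE 0.175). The rule limited mitochondrial UMIs to 5% of each nucleus, so the values of these genes are a description. Median percentages per astrocyte were well under that limit, at 0.0967% and 0.0629% in METH and 0.101% and 0.0788% in saline. In nuclei these transcripts come from outside the nucleus, and the part of carried-over cytoplasm was not tested.

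Receptors and signalling genes gave no call. Of the 31 monoamine receptor, transporter and breakdown genes 9 passed the filter on low counts, with a median of 0.02, and Htr2b and Htr2c, serotonin receptors, were at 0.34 (SE 0.190) and −1.97 (SE 1.16). Htr2c was at 9.40 and 2.80 CPM in METH and at 38.3 and 6.12 CPM in saline, so that saline replicate 1 alone was high. The 20 tested transmitter receptors had a median of 0.0077, with the purine receptor P2rx7 at 0.77 (SE 0.223) and Ntsr2 at 0.35 (SE 0.171). The 21 calcium and cAMP genes had a median of −0.15, with Itpr1 (a calcium release channel) at −0.52 (SE 0.118) and Adcy8 at −0.63 (SE 0.189). Itpr1 was at −0.12 in the narrowed set. Immediate early genes were few: 13 of 24 passed the filter, with a median of −0.08, and Fos was at 3.66 and 8.41 CPM in METH, against 8.93 and 6.12 CPM in saline. The 18 clock genes had a median of 0.08, with Npas2 at 0.30 (SE 0.135), and the 14 heat shock and unfolded protein genes a median of 0.03.

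Genes of astrocyte state and identity also stayed below the threshold. Of the 28 genes on the reactive astrocyte list 10 passed the filter on low counts, 5 of them positive, with a median of 0.08. Gfap was at 198 and 226 CPM in METH and at 235 and 249 CPM in saline. Both METH libraries were below both saline libraries, with a log2 fold change of −0.20 (SE 0.126, adjusted p = 0.934 in edgeR) and −0.38 (SE 0.113, adjusted p = 0.997 in edgeR) in the narrowed set. The 22 astrocyte transcription factors had a median of 0.12, with Emx2 at 0.67 (SE 0.200), the 17 protoplasmic genes 0.16, and the 19 fibrous and pial genes −0.03. Over the narrowed set those 3 medians were −0.03, 0.02 and −0.05. Axon-guidance and adhesion genes had 9 of 26 positive, a median of −0.27 and Slit2 at −0.94 (SE 0.201), but a median of −0.02 in the narrowed set. The nuclei set aside held 89.0% of the UMIs of Slit2, which was itself at −0.58 in the narrowed set.

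**Figure D3:**
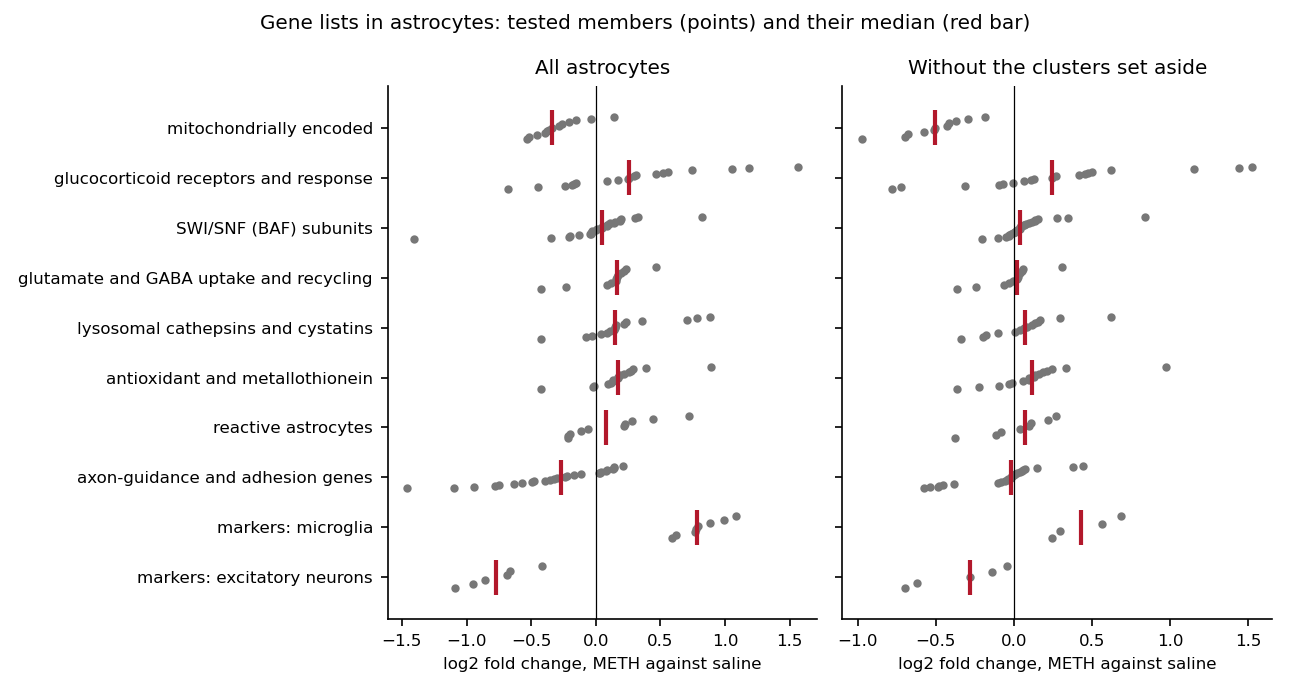
Log2 fold changes of METH against saline for the tested members of 10 gene lists, as points, with the list median as a red bar. Left, all astrocytes of the rule; right, the narrowed set. The mitochondrial median is −0.34 on the left and −0.50 on the right, and the axon-guidance median −0.27 and −0.02; the 2 panels have different x ranges.

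Markers of other cell types were present in the astrocytes of the rule, and for the microglia and blood lists both METH libraries were above both saline libraries. The 8 microglia markers summed to 281 and 501 CPM in METH and to 188 and 279.8 CPM in saline, with all 8 log2 fold changes positive and a median of 0.78. Within the narrowed set they summed to 94.1 and 106 CPM in METH, against 77.1 and 72.0 CPM in saline, and the 4 that could be tested had a median of 0.43. For the next lists, genes whose counts the rule limited are left out of the sums. The excitatory neuron markers summed to 132 and 107 CPM in METH and to 273 and 114 CPM in saline, and the precursor markers to 108 and 82.5 CPM in METH and to 196 and 76.5 CPM in saline. Saline replicate 1 alone was high for both. The inhibitory neuron markers came to 351 and 137 CPM in METH and to 357 and 256 CPM in saline, with METH replicate 2 the lowest. Oligodendrocyte markers came to 350.1 and 259.6 CPM in METH, against 366 and 228 CPM in saline, and vascular markers to 177 and 185 CPM in METH, against 131 and 212 CPM in saline. Ependymal markers came to 18.8 to 23.6 CPM with Tmem212 at 0 in all 4 libraries, and blood markers to 23.5 and 32.4 CPM in METH and to 22.1 and 17.8 CPM in saline. The 5 astrocyte markers outside the rule summed to 2325 and 2479 CPM in METH and to 1794 and 2286 CPM in saline. The part of these other nuclei in any difference was not tested beyond the narrowed values.

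Whether the difference between METH and saline was particular to astrocytes was tested by a class-by-treatment term with the library as a block. It was called for 0 of 11010 genes against 1306 oligodendrocyte precursors (0% called, 487 at an unadjusted p under 0.05) and for 0 of 14775 genes against 12653 excitatory neurons (0% called, 609 at an unadjusted p under 0.05) in edgeR, both classes chosen by rules of the same form. Without saline replicate 2 the calls were 195 and 691, without saline replicate 1 they were 4 and 33, and without either METH library 0 and 0. Smarcc1 was at 232 and 233 CPM in METH precursors and 167 and 220 CPM in saline precursors. In excitatory neurons it was at 131 and 120 CPM in METH, against 127 and 123 CPM in saline. Its term was 0.59 (SE 0.205, adjusted p = 0.991 in edgeR) against precursors and 0.80 (SE 0.155, adjusted p = 0.958 in edgeR) against excitatory neurons, and 0.81 (SE 0.144, adjusted p = 0.227) against excitatory neurons with the narrowed set. A difference of Smarcc1 between the classes was thus not shown. The test could seldom call a difference of this size. On simulated data the term against precursors called 0% of 1.5-fold and 12.2% of 2-fold changes. Against excitatory neurons it called 0% and 30%. Cst3 had both METH libraries above both saline libraries in each class. It was at 587 and 537 CPM in METH, against 309 and 310.1 CPM in saline in precursors, and at 157 and 141 CPM in METH, against 75.7 and 83.6 CPM in saline in excitatory neurons. Its terms were −0.06 (SE 0.191) and −0.13 (SE 0.185). B2m was at 14.8 and 14.9 CPM in METH excitatory neurons and 8.12 and 7.28 CPM in saline ones, with a term of −0.11 (SE 0.187).

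Variation among the astrocytes was next examined along Gfap. Nuclei were thinned to 1000 UMIs, so that depth did not set the split, and shallower ones were left out. A Gfap UMI was then found in 15.8% and 15.9% of astrocytes in METH and in 15.1% and 17.0% in saline. Without thinning the shares were 20.9% and 25.1% in METH, against 18.1% and 25.4% in saline. Excitatory neurons, which should lack Gfap, had a Gfap UMI in 0.134% and 0.135% of thinned nuclei in METH and in 0.188% and 0.0383% in saline, at median depths before thinning of 5625 and 6433 UMIs in METH and 3355 and 6362 UMIs in saline. There were 153 and 187 Gfap-detected and 813 and 987 Gfap-undetected nuclei in METH, and 118 and 133 detected and 663 and 648 undetected nuclei in saline. Among narrowed nuclei a Gfap UMI was found in 16.8% and 17.6% of thinned nuclei in METH and in 20.6% and 20.3% in saline, with both METH libraries below both saline libraries, a difference that was not tested. In the nuclei set aside it was found in 9.93% and 6.63% in METH and in 6.77% and 5.33% in saline. A nucleus without a Gfap UMI at this depth may still express the gene.

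Between Gfap-detected and Gfap-undetected astrocytes, 209 of 7822 genes were called in edgeR with the library as a block (2.67%), 53 higher (0.678%) and 156 lower (1.99%). Without 1 library there were 75 (without saline replicate 2), 118 (METH replicate 2), 122 (saline replicate 1) and 184 calls (METH replicate 1). In the narrowed set 64 of 5992 were called (1.07%), 42 higher (0.701%) and 22 lower (0.367%). Of the 53 genes higher in Gfap-detected astrocytes of the rule, all 53 were positive in the narrowed set and 26 were called there. Of the 156 lower genes 8 were called lower in the narrowed set, where 75 could be tested. Of these 156, 150 had a higher CPM in the nuclei set aside than in the narrowed set, or 96.2%, beside 51.6% of all genes tested.

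The genes higher in Gfap-detected nuclei were led by Id3 and Tnc. Id3 (ENSRNOG00000026124) was at 346 and 316 CPM in Gfap-detected and 57.8 and 86.1 CPM in Gfap-undetected nuclei of METH, and at 254 and 248 CPM in detected and 46.8 and 94.1 CPM in undetected nuclei of saline. All 4 libraries showed the difference, with a log2 fold change of 2.05 (SE 0.174, adjusted p = 7.34e-15 in edgeR) and 1.93 (SE 0.168) in the narrowed set. Tnc (ENSRNOG00000058645) was at 458 and 449 CPM in detected and 139 and 130 CPM in undetected nuclei of METH, and at 280 and 421 CPM in detected and 106 and 89.5 CPM in undetected nuclei of saline. Its log2 fold change was 1.80 (SE 0.142, adjusted p = 4.39e-16 in edgeR) and 1.55 (SE 0.137) in the narrowed set. The related Id1 and Id2 were at 2.10 (SE 0.404) and 0.93 (SE 0.199), also called in both sets. The 250 bases before the start sites of Gfap (chr10:88361662-88361911, minus strand), Id3 (chr5:153656041-153656290, plus strand) and Tnc (chr5:82476132-82476381, minus strand) are shown because these genes moved together (RefSeq, GRCr8), 5′ to 3′ along each gene, with capitals for the letters TATAA.
Gfap: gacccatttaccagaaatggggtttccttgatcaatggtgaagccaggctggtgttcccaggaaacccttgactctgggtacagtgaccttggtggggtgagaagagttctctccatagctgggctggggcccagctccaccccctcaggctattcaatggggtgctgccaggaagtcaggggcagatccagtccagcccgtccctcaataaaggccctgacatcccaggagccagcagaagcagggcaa
Id3: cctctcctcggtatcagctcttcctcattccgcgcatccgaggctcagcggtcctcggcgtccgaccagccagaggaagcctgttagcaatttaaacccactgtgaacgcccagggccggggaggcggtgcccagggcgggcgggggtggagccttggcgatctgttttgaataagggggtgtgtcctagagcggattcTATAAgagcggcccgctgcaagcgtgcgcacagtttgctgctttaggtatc
Tnc: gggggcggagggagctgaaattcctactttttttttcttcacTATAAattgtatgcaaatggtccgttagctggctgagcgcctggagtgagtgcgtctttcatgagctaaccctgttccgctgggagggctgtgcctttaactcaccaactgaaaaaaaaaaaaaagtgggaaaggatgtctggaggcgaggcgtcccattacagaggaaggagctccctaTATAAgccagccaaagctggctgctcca
TATAA occurs 28 and 208 bases before the start site in Tnc, 51 bases before it in Id3, and in 24% of 33469 rat windows of this length on either strand. It is not in the Gfap window. None of the 3 windows holds the STAT letters TTCNNNGAA (7.67% of windows), the SMAD letters GGCGCC (8.69%) or the AP-1 letters TGANTCA (6.34%). A match or its absence is a description of these letters only.

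Of 23 tested axon-guidance and adhesion genes 2 were higher in Gfap-detected astrocytes (Sema5a and Sema6a) and 4 were lower (Erbb4, Sema3a, Slit2 and Robo1), with a median of −0.0069, and in the narrowed set 3 of 18 were higher (these 2 and Robo2) and 1 was lower (Robo1). Sema5a, a semaphorin, was at 229 and 214 CPM in detected and 77.5 and 60.8 CPM in undetected nuclei of METH, and at 237 and 128 CPM in detected and 106 and 57.1 CPM in undetected nuclei of saline. Its log2 fold change was 1.46 (SE 0.186) and 2.31 (SE 0.209, adjusted p = 4.18e-25 in edgeR) in the narrowed set. Nrp2, a semaphorin receptor, was at 1.49 (SE 0.260), Sema6a at 1.02 (SE 0.207), and the formin Fmn1 at 1.06 (SE 0.177). Alk, a receptor tyrosine kinase, was at 444 and 460 CPM in detected and 192 and 227 CPM in undetected nuclei of METH, and at 508 and 368 CPM in detected and 214 and 208 CPM in undetected nuclei of saline, at 1.08 (SE 0.124). Fabp7, a fatty acid binding protein of radial glia and astrocytes, was at 1.19 (SE 0.241), and Osgin2, Eepd1, Gcnt2 and Pdlim3 were at 1.24, 1.08, 1.04 and 1.03. All of these were higher in 4 of 4 libraries and called in both sets. They differed in firmness over the 12 alternatives to the main fit. Sema5a and Alk were called in 12, Gcnt2 and Sema6a in 8, Eepd1 in 4 and the others in 10 or 11. Aqp4, which belongs to the rule, had a log2 fold change of 0.99 and is given as a description; with Itih3 and Prex2 it makes 3 rule genes among the 64 calls in the narrowed set. Bmp6 turned round, at −0.95 in all astrocytes and 0.80 in the narrowed set.

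**Figure D4:**
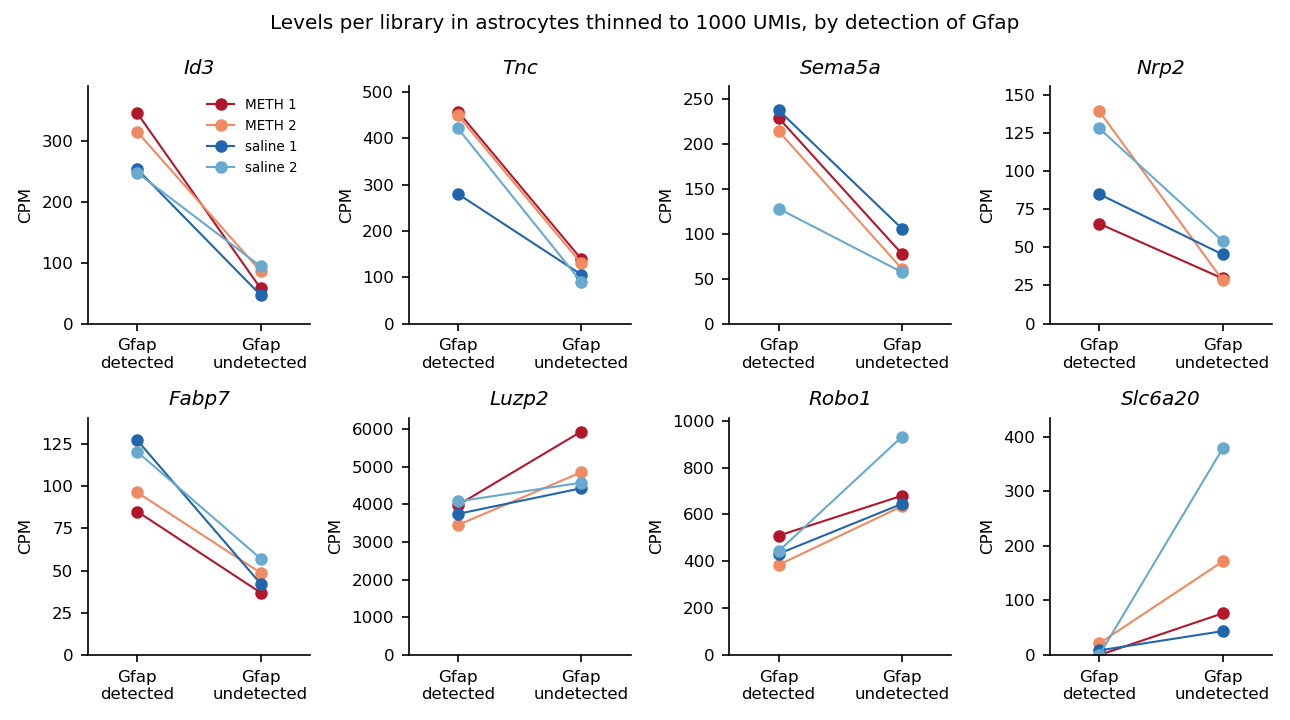
CPM of 8 genes in Gfap-detected (left) and Gfap-undetected (right) astrocytes of the rule, thinned to 1000 UMIs, with 1 line per library. Id3, Tnc, Sema5a, Nrp2 and Fabp7 are higher in Gfap-detected nuclei of all 4 libraries, Luzp2 and Robo1 are lower, and Slc6a20 is at or near 0 in detected nuclei and most varied in undetected ones.

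Among the genes lower in Gfap-detected astrocytes, Luzp2, a leucine zipper protein, was the one with the most counts. In the narrowed set it was at 4165 and 3537 CPM in detected and 6452 and 5462 CPM in undetected nuclei of METH, and at 3990 and 4194 CPM in detected and 5853 and 5607 CPM in undetected nuclei of saline. The groups did not overlap, with a log2 fold change of −0.57 (SE 0.0412, adjusted p = 4.49e-39 in edgeR), and −0.37 (SE 0.0656, adjusted p = 5.87e-05) in all astrocytes. Also lower in both sets were the guidance receptor Robo1 at −0.41 in the narrowed set and −0.69 in all astrocytes, the neurotrophin receptor Ntrk3 at −0.47 and −0.56, and the G protein regulator Rgs7 at −0.54 and −0.39. The NMDA receptor subunit Grin2b was at −0.40 in the narrowed set, and at −0.28 and not called in all astrocytes. Genes of the clusters set aside filled the rest of the list in all astrocytes. Slc6a20 was at 0 and 21.4 CPM in detected and 76.3 and 171 CPM in undetected nuclei of METH, and at 8.47 and 0 CPM in detected and 43.7 and 378 CPM in undetected nuclei of saline, with 98.7% of its UMIs in the nuclei set aside. Bnc2 (97.8%), Erbb4 (93.7%) and Tmeff2 (86.3%) were alike in this, at −4.62, −2.01 and −1.80.

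**Figure D5:**
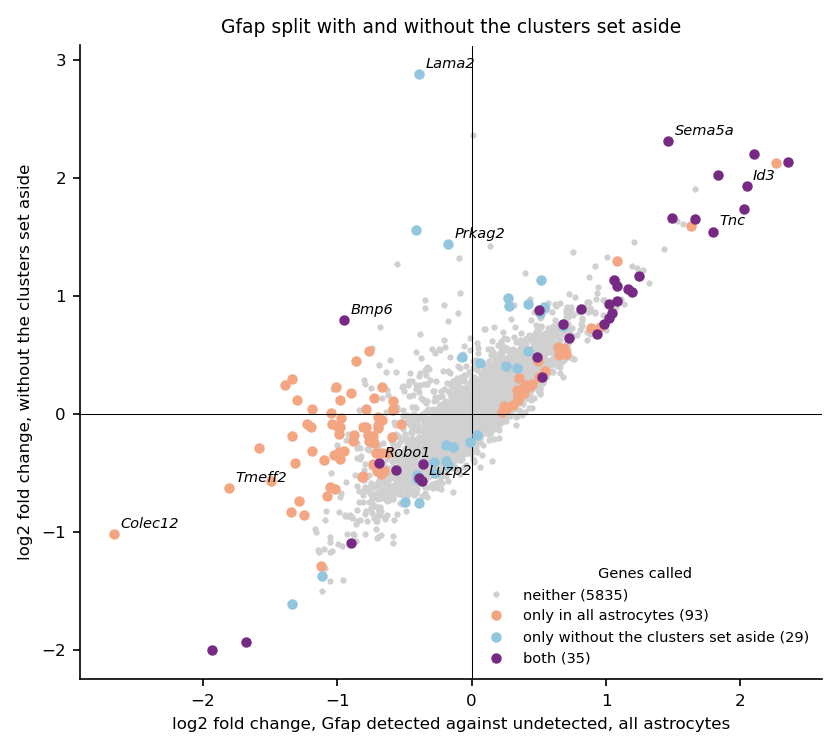
Log2 fold change of Gfap-detected against Gfap-undetected astrocytes for 5992 genes tested in both sets, all astrocytes on the x axis and the narrowed set on the y axis. The 35 genes called in both lie mostly at the right, with Id3, Tnc and Sema5a, and at the lower left; the 93 called only in all astrocytes include a spread of genes left of 0 that lie near 0 on the y axis.

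By list, 5 of 16 tested fibrous and pial genes were higher in Gfap-detected astrocytes (Tnc, Id3, Id1, Fabp7 and, as a gene of the rule, Aqp4) and 1 lower (the potassium channel subunit Kcnj3 at −0.79, SE 0.235) with a median of 0.57, and the same 5 of 14 in the narrowed set with a median of 0.72, beside 0.678% and 0.701% of all genes called higher. Of 17 and 16 tested protoplasmic genes 0 were higher in either set, with medians of 0.11 and −0.10. In the narrowed set 1 of them was lower. Of 22 astrocyte transcription factors 4 were higher (Id3, Id1, Id2 and Rorb), and 3 in the narrowed set, without Rorb. The glutamate uptake list had 1 of 11 higher, the enzyme Glud1 at 0.45 (SE 0.0857), and 0 in the narrowed set. The reactive list had 1 of 8 higher, Tnc. The synapse list had 2 of 18 higher, Ncan at 0.70 (SE 0.164) and Sparcl1 at 0.38 (SE 0.0953, 3 of 4 libraries). The calcium and cAMP list had 2 of 20 higher, Adcy8 at 1.08 (SE 0.306) and Adcy2 at 0.50 (SE 0.124). Tnc was called in the narrowed set too. None of Ncan, Sparcl1, Adcy8 and Adcy2 was called there, and 1 other synapse gene was lower. The neuronal marker Adarb2 at −1.71 and the microglia marker Inpp5d at −1.09 were lower, and could not be tested in the narrowed set. The glucocorticoid list had 1 of 14 lower, Errfi1 at −1.08 (SE 0.223), and 0 of 13 called in the narrowed set. Of 13 genes of ion handling Kcnk2 was lower at −2.19, and the call of Aqp4 rests on a gene of the rule. The GABA receptor subunits Gabrb1 and Gabrg1 were at 0.22 (SE 0.0663) and 0.34 (SE 0.0958), and 0.02 and 0.12 in the narrowed set, where neither was called. On the same list of 19 tested transmitter receptors, the AMPA receptor subunit Gria4 at −1.30 (SE 0.212) and the opioid receptor Oprm1 at −1.78 (SE 0.514) were lower; Gria4 was at 0.12 and not called in the narrowed set, where Oprm1 could not be tested. Gene lists with 0 calls in both sets were those of gap junctions, cholesterol synthesis, glycogen and glucose, monoamine receptors, immediate early genes, SWI/SNF subunits, mitochondrial genes, heat shock, antioxidants and lysosomal genes.

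Genes described between METH and saline were also compared on both sides of the split, without a test. Smarcc1 was at 301 and 348 CPM in Gfap-detected nuclei of METH and 153 and 248 CPM in those of saline, and at 386 and 368 CPM in Gfap-undetected nuclei of METH and 193 and 191 CPM in those of saline. METH was above saline in each case without overlap. Cst3 was at 863 and 802 CPM in detected nuclei of METH and 424 and 541 CPM in those of saline, and at 772 and 855 CPM in undetected nuclei of METH and 391 and 523 CPM in those of saline. Fkbp5 had 0 and 9 UMIs in detected nuclei of METH and 1 and 0 in those of saline, and 7 and 72 in undetected nuclei of METH and 21 and 13 in those of saline, so that METH replicate 2 was the high library on both sides. Rspo2 had 0 or 1 UMI in detected nuclei of every library, and 16 and 14 UMIs in undetected nuclei of METH and 53 and 47 in those of saline.

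A similar axis was found in the narrowed set without the split. The same thinned nuclei were used, with Gfap among the genes, so it is a description and no separate evidence. In a principal component analysis of the narrowed set, run in each library by itself over 3327 genes, the first component had Id3, Tnc and Gfap among the genes with the largest loadings at one end and Luzp2, Kcnma1, Etv4 and Cables1 at the other, with the same sign in 4 of 4 libraries. Across genes, which are not independent replicates, the loadings of pairs of libraries had correlations of 0.380 to 0.562. The component held 0.342% to 0.456% of the variance between nuclei, where most of the spread is counting noise. In all astrocytes of the rule the first component instead set Gpm6a, Prex2, Ctnnd2 and Slc1a2 against Xkr4, Il1rapl1 and Tmeff2, and held 0.845% to 1.81%.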

How the data were processed

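Nuclei were captured with 10x Genomics 3′ chemistry (v3.1), per the labels' protocols, and the deposited files hold UMI counts per gene and barcode that the authors made with Cell Ranger 7.0.0, per the submitters' processing notes, with no normalization. The notes name hg38 while the gene identifiers are rat Ensembl identifiers; the sources used here name no rat build, and coordinates printed are those of RefSeq's GRCr8 table only. Strand use in counting is not given, so overlapping genes and near-identical copies are uncertain.

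The members, gene lists and comparisons were chosen with earlier results of these data known. Nuclei of 1 library are not independent, so astrocyte counts were added up within each library, and METH was compared with saline by edgeR 4.0.16 (TMM factors, filterByExpr, robust quasi-likelihood F test, two-sided, Benjamini-Hochberg over all genes tested, called at 0.05) in R 4.3.3. The SE is the log2 fold change over the square root of F. For the Gfap split, each nucleus was thinned to 1000 UMIs, shallower ones (176 and 88 in METH, 753 and 85 in saline) and Gfap itself were left out, and the library was a block. Class-by-treatment terms also had the library as a block. DESeq2 1.42.0 was an alternative. Doublets were limited by the rule's limits on other types' genes, which 56.3% and 52.1% of nuclei with 4 astrocyte UMIs passed in METH and 68.6% and 50.4% in saline, and no doublet caller was run. Clusters (Leiden, resolution 0.8, 20 neighbours over 20 components of 2000 variable genes) came from Scanpy 1.11.5 and igraph 0.11.9. The fits were tested on simulated data with known changes. CPM is a count scaled to the summed counts of its set, and compares libraries, not genes.

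Named genes were those called, up to 12 per direction, otherwise the 5 with the smallest p; for each of 32 lists the members called, otherwise the 2 with the smallest p; Cst3, Smarcc1, Gfap, Aqp4, Slc1a2, Slc1a3, Gja1, Apoe, Fkbp5 and Fos whatever their result; and in the Gfap split up to 12 per direction at a mean of at least 50 CPM. Other genes were named after their values were seen. Alternatives were the normalization, the filter on low counts, DESeq2, depth, numbers of nuclei, limits of the rule and each library left out.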

Additional observations from a re-analysis of the deposited data

How the results depend on the processing

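With METH against saline in all astrocytes, 0 genes were called. DESeq2 called 1, the fit with no filter on low counts 34, at least 8 astrocyte UMIs 5, and the narrowed set 1. Leaving out a library gave 0 to 329, the highest without saline replicate 2, and in the narrowed set 39 and 2 (without METH replicates 1 and 2) and 16 and 127 (without saline replicates 1 and 2). The replicate numbers share only a number: with a replicate block 217 genes were called, and deviations of same-numbered libraries correlated at 0.384 across 11320 genes, against −0.384 for the others, values that mirror each other by construction with 2 groups of 2. The Gfap split gave 209 calls, against 41 in DESeq2, 13 without the library block, 656 without thinning, 53 with 0 UMIs of other classes' genes and 64 in the narrowed set. Without 1 library it gave 75 to 184, and in the narrowed set 21 and 28 (without METH replicates 1 and 2) and 42 and 27 (without saline replicates 1 and 2). The class-by-treatment terms gave 0 calls. With no filter on low counts they gave 55 (precursors) and 2 (excitatory neurons), with equal numbers of nuclei 5 against precursors, and without 1 library 0 to 195 and 0 to 691. The share difference of 3.50 was 5.73 with thinned nuclei and 1.98 to 5.03 without 1 library. The cause of these changes was not tested.

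The sign of the log2 fold change turned for genes that were not called: Gfap 0.070 and Alas2 −0.16 with at least 1000 genes, Gja1 −0.046 with 0 UMIs of other classes' genes, −0.085 with at least 8 astrocyte UMIs and −0.045 in the narrowed set, Apoe −0.00948 with at least 8 astrocyte UMIs, and Apoe −0.069, Mlc1 −0.034, Hk2 −0.0061 and Gad2 0.024 in the narrowed set. Without 1 library the log2 fold change took either sign, from −0.011 to 0.29 in Apoe, −0.74 to 1.78 in Fkbp5, −1.04 to 0.14 in Fos, −1.15 to 0.098 in Neurod6, −0.86 to 0.48 in Gad1, −0.029 to 0.61 in Cldn5, −1.20 to 2.45 in Dcn, −0.13 to 1.56 in Hba-a1 and −0.22 to 0.43 in Alas2. The other 1152 values of the 73 genes named for METH kept their direction and side of the threshold, and 63 passed it, 17 of them with the replicate block. For the genes named by size in the Gfap split, 12 per direction, 223 values kept their side and 54 fell below the threshold, with 0 turned; Bmp6 and Gria4, which changed sign in the narrowed set, are not among them.

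The METH comparison had 2 libraries per group and a median of 1005.5 to 1742 UMIs per astrocyte. In counts simulated at this size, 4.17% of 1.5-fold, 26.5% of 2-fold, 75.5% of 3-fold and 98% of 4-fold changes were recovered. Other depths, other numbers of changed genes and a spread that differs between genes of like level were not simulated. The narrowed set was chosen after seeing the data. Saline replicate 1 is shallow, and 753 of its astrocytes had too few UMIs to be thinned.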
